A study of Mus musculus with 4 samples.

Results

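Alternative splicing of kinase and phosphatase genes was followed in mouse endothelial cells (ECs, the cells that line blood vessels) that overexpressed the splicing factor NOVA2. The events were all entries of the deposited splicing table whose gene symbol began with a kinase or phosphatase name stem (such as Mapk, Map4k, Cdk, Nek, Ptp or Ppp), without Map2k7 and Ptprm. The rule took 37 alternative splicing (AS) events in 27 genes, of 1075 events in 869 genes in the table. Some genes carry such a stem as scaffolds, regulators or interaction partners of a kinase or phosphatase, and these are named as such. Control ECs were of the moEC mouse endothelial line and had been transduced with a lentiviral HA vector without NOVA2. NOVA2-overexpressing ECs were the same line transduced with a lentiviral vector that drives HA-tagged human NOVA2 from a CMV promoter. Each group had 2 RNA-seq libraries, and no source used here says if they came from separate cultures, so each p compares these libraries and not independent cultures. Expression values were not used here, so neither the NOVA2 level nor endothelial markers were checked against the labels.

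Protein kinases transfer phosphate from ATP to serine, threonine or tyrosine residues, phosphatases remove it, and lipid kinases phosphorylate membrane lipids. In the MAPK cascade, kinases activate each other in tiers, from Map4k and Map3k members through Map2k members to the terminal p38 and JNK kinases, and scaffold proteins hold the tiers together. NOVA proteins bind clusters of YCAY tetramers (Y stands for C or T) in pre-mRNA, and exon inclusion can be raised or lowered by such binding, depending on where the cluster lies relative to the exon. In ECs, receptor and MAPK signalling governs growth, migration and junctions.

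The exons below are 6 cassette exons (exons that are either spliced in or skipped) for which the change kept an adjusted p under 0.05 with each library left out in turn. They are printed from the mm9 genome, 5′ to 3′, so that the sequence behind the values can be read. The first and last 15 bases of each exon line are intron, and capitals mark every YCAY tetramer (the spellings TCAT and TCAC, together with those that start with C, which are CCAT and also CCAC, read on the transcribed strand with overlaps allowed). The last pair of lines gives intron next to the exons of Map4k3 and Tnk2.
Map4k4, 192-nt exon, chr1:40068480-40068701, plus strand: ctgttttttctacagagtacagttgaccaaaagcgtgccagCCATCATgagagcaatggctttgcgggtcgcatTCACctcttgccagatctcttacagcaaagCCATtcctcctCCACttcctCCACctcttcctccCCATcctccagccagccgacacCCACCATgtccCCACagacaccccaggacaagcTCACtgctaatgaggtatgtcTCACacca
Map4k3, 54-nt exon, chr17:81017619-81017702, minus strand: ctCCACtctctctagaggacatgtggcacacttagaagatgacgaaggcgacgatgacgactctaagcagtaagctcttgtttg
Mark3, 27-nt exon, chr12:112890154-112890210, plus strand: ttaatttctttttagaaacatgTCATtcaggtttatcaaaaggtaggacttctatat
Tnk2, 96-nt exon, chr16:32680971-32681096, plus strand: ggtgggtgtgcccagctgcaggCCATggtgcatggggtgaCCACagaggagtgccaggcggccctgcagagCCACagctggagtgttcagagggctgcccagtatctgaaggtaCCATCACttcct
Clk2, 167-nt exon, chr3:88977284-88977480, plus strand: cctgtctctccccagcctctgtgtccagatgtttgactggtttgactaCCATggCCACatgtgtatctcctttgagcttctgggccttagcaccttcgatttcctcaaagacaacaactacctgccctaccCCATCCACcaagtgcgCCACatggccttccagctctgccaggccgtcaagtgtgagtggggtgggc
Fgfr1, 267-nt exon, chr8:26665965-26666261, plus strand: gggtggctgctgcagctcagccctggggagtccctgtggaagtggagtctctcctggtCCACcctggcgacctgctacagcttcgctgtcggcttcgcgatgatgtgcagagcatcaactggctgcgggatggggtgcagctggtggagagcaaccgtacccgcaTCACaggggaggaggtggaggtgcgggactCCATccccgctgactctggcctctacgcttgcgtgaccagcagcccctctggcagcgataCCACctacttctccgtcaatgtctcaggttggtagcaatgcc
Map4k3, upstream intron, chr17:81017688-81017787, minus strand: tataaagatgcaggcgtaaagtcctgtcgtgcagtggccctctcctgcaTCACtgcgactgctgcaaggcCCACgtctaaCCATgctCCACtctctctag
Tnk2, downstream intron, chr16:32681082-32681181, plus strand: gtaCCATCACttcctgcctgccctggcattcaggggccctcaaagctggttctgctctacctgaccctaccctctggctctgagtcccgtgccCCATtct
The 192-nt exon of Map4k4 held 11 YCAY tetramers within the exon itself, against 0 in the exon of Map4k3 and 1 in that of Mark3. In the 100 nt before the Map4k3 exon there were 4 tetramers, while the 92-nt intron before the Tnk2 exon held 0 and the first 100 nt after it held 3. These matches are letters in the reference sequence and not binding sites.

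The percent spliced in (PSI) is the share of reads that include an exon, intron or splice site, and dPSI is the difference of group means, NOVA2-overexpressing minus control. Of the 37 events, 22 were cassette exons, 12 were retained introns and 3 were alternative 3′ splice sites. Each event was tested by a two-sided Fisher's exact test that compared pooled inclusion and exclusion reads of the groups, with Benjamini-Hochberg adjustment over all 1075 events, and "rose" and "fell" below refer to an adjusted p under 0.05. The reads are corrected reads, which divide all junction reads of an event by its PSI. Inclusion of an exon or intron is read at 2 junctions and its absence at 1, so these p-values can understate counting error. In control replicate 1 the Map4k3 exon had 165 and 158 inclusion reads and 13 skipping reads, entered as 92.3% of 336 reads. Pooling also takes reads as independent molecules, so these p-values leave out the spread between libraries. Quasi-binomial regression estimates that spread for each event from the 4 libraries. It called 1 of the 12 rises described next (the 199-nt intron of Mapk11). Of the 11 falls it called 5 (Mark3, Tnk2, Csnk1g3 and the introns of Csnk1a1 and Dmpk). It also called events that the exact test did not, so that its calls among the 37 events were 6 higher and 8 lower. The events it added ranged from the Stk11ip intron, with 11 reads in its lowest library, to the Map3k10 intron, with 199. A spread estimated from 4 libraries is itself uncertain. Of all deposited events it gave a p for 1073 and called 256. PSI rose in NOVA2-overexpressing ECs for 12 of the 37 events, and 30.7% of all deposited events rose. It fell for 11 of the 37, and 25.2% of all deposited events fell. The number of rises dropped to 5 when any 1 of the 4 libraries was left out, whichever library it was. The number of falls was 10 without control replicate 1 and 8 without control replicate 2. It was 9 without NOVA2-overexpressing replicate 1 and 11 without NOVA2-overexpressing replicate 2. The whole table lost calls too. With all 4 libraries 55.9% of the 1075 events were called, and with the same libraries left out in that order 349, 315, 384 and 407 were. Every deposited event had already passed the authors' rule that each library of one group differs by more than 5 PSI points from each library of the other, so groups that do not overlap are a property of the table and not a result, and an adjusted p here is not a false discovery rate.

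Each class was set beside the same class in the whole table. Among the 22 cassette exons, 5 rose and 9 fell, where 25.7% of all deposited cassette exons rose and 44.4% fell. Among the 12 introns, 5 showed more retention and 2 less, beside 31.5% and 8.68% of all deposited introns. For the 3 alternative 3′ sites, 2 rose, and 42.9% of all such sites did, while all 119 such sites in the table have a positive dPSI. An absolute dPSI of at least 10 points was reached by 13 events, of which 7 were higher and 6 lower, beside 33% and 20.1% of all events. The median absolute dPSI of the kinase and phosphatase events was 8.75 points, against 10.3 points over all deposited events. These counts are a description of 37 events, and no difference from the rest of the table was tested.

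**Figure D1:**
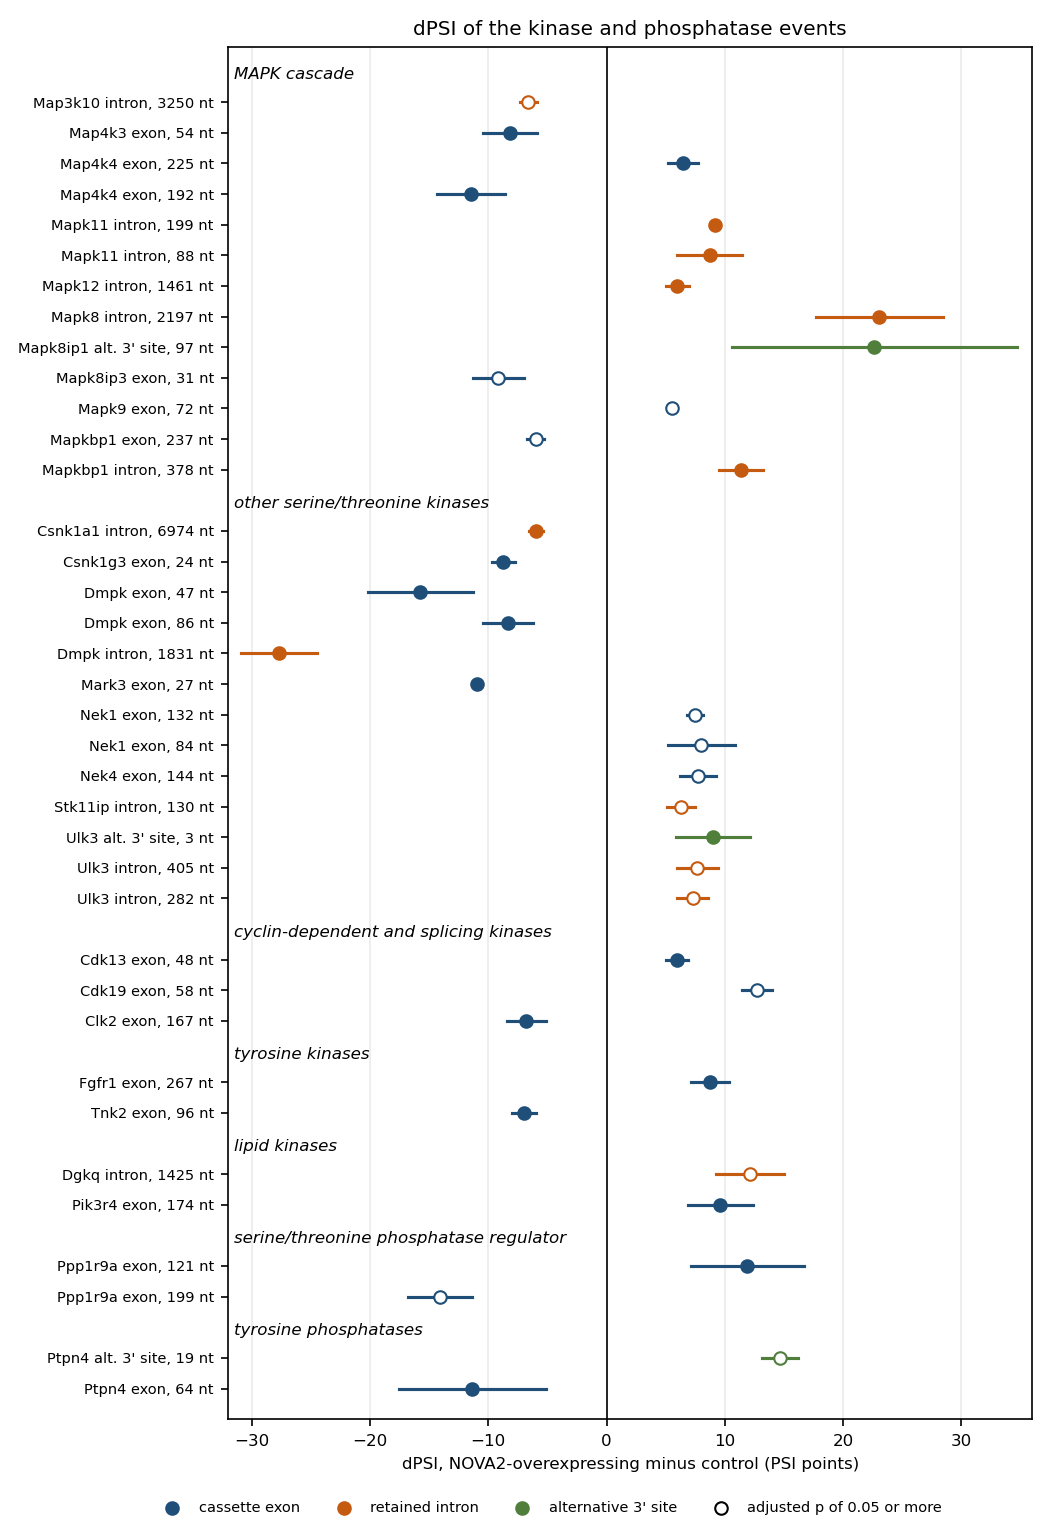
dPSI in PSI points (x axis) of all 37 kinase and phosphatase events, grouped by role. Points are dPSI from group means, lines span the 4 differences between a NOVA2-overexpressing and a control library, and open points had an adjusted p of 0.05 or more. The Dmpk intron lies farthest to the left at -27.7 points and the Mapk8 intron farthest to the right at 23.1 points.

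The MAPK cascade had 13 events in 10 genes, of which 7 rose and 2 fell, beside 30.7% and 25.2% of all deposited events. All but 1 of these rises were of introns or a 3′ site, and no difference from other genes was tested. At its top tier, Map4k3 and Map4k4 changed exon use. Map4k4, a kinase upstream of JNK known for its part in EC migration, had changes of opposite sign in different exons. Its 192-nt exon (chr1:40068495-40068686, coding, absent from 3 annotated transcripts that span it) had a PSI of 74.9% and 69.5% in control replicates 1 and 2 and of 60.9% and 60.5% in NOVA2-overexpressing replicates 1 and 2. The mean fell from 72.2% ± 3.81 to 60.7% ± 0.283 (SD, n = 2 each), with an adjusted p of 8.84e-12 by Fisher's exact test and at least 710 reads in every library. Quasi-binomial regression, with the spread between replicates, gave an adjusted p of 0.0907. The control libraries differed more from each other than the NOVA2-overexpressing ones did. A 225-nt exon of the same gene, whose nearest annotated form is 231 nt long, rose from 34.6% and 36.4% to 41.6% and 42.4% (dPSI 6.47, adjusted p = 0.00648, Fisher's exact test). Without control replicate 1 its adjusted p was 0.0776 in the same exact test.

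Map4k3, an upstream kinase of the same family linked to amino acid sensing, had a 54-nt coding exon (chr17:81017634-81017687) at 92.3% and 90.9% in control ECs and at 81.8% and 85.0% in NOVA2-overexpressing ECs. Its dPSI was -8.15 points with an adjusted p of 7.73e-06 by Fisher's exact test. No annotated transcript that spans this exon skips it. Map3k10, a mixed-lineage kinase that activates JNK signalling, had an intron at 48.6% and 47.7% against 41.2% and 41.8%, which missed the threshold (adjusted p = 0.0544, Fisher's exact test). In that intron the reads came almost wholly from one exon-intron junction, with 128 against 2 reads in control replicate 1.

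Introns of the p38 kinase genes Mapk11 and Mapk12 were among the 5 with more retention, in a table where 245 of 311 introns had a positive dPSI. Mapk11 (p38 beta) had 2 of them. Its 199-nt intron (chr15:88975606-88975804, intron 8 of a 12-exon transcript) was at 18.4% and 18.6% in control ECs and at 27.4% and 27.97% in NOVA2-overexpressing ECs, and rose by 9.16 points (adjusted p = 0.00157, Fisher's exact test). Its 88-nt intron 5 (chr15:88976481-88976568) rose from 7.91% and 9.54% to 15.5% and 19.4% (adjusted p = 0.0108, Fisher's exact test). Replicates lay close together for the longer intron and farther apart for the shorter one. Neither intron contains an in-frame stop codon after the upstream coding exon, and the length of each leaves a remainder of 1 when divided by 3, so reading on would change the frame. Leaving out control replicate 1 raised the adjusted p of the 88-nt intron to 0.0871, and leaving out NOVA2-overexpressing replicate 2 raised it to 0.114, by the same exact test.

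Mapk12 (p38 gamma) lies close to Mapk11 on chromosome 15. Its 1461-nt intron 7 was at 13.4% and 13.7% in control ECs and 20.4% and 18.8% in NOVA2-overexpressing ECs, a rise of 5.995 points with an adjusted p of 0.00837 by Fisher's exact test. Its junction reads were uneven in 3 of 4 libraries (18 and 52 reads in control replicate 1, 41 and 51 in control replicate 2). Its adjusted p was 0.0704 without control replicate 2 and 0.0808 without NOVA2-overexpressing replicate 1, from the same exact test. The first in-frame stop codon lies 75 nt into the intron.

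Events in genes of the JNK branch ranged from the smallest absolute dPSI of the 37 events (5.56 points, Mapk9) to 23.1 points (Mapk8), and the largest had few reads behind them. Mapk8 (JNK1) had a 2197-nt intron (chr14:34203931-34206127) at 27.8% and 31.4% in control ECs and at 49.2% and 56.3% in NOVA2-overexpressing ECs, a rise of 23.1 points with an adjusted p of 0.0166 by Fisher's exact test. Each control value rests on 23 reads, and the 95% Wilson interval of control replicate 1 ran from 12.5 to 46.5%. The adjusted p by that exact test was 0.132, 0.0652 and 0.0994 without control replicate 1, control replicate 2 and NOVA2-overexpressing replicate 2. Annotated exons of other Mapk8 transcripts cover 2004 of the 2197 nt, and their part in the value was not tested.

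Mapk8ip1, a scaffold that binds JNK and its upstream kinases, used an alternative 3′ splice site at 80.0% and 57.9% in control ECs and at 90.6% and 92.6% in NOVA2-overexpressing ECs. Its PSI rose by 22.7 points (adjusted p = 0.0201, Fisher's exact test), but the control libraries differed from each other by almost as much, and the lowest library had 15 reads. Without control replicate 2, dPSI was 11.6 points and the adjusted p 0.406 in the exact test. Mapkbp1, a JNK-binding protein, had a 378-nt intron at 2.16% and 0% in control ECs and at 11.7% and 13.2% in NOVA2-overexpressing ECs. Retention rose by 11.4 points with an adjusted p of 0.0411 by Fisher's exact test, and the 0 of 36 reads in control replicate 2 allows a share of up to 8.33%. With any of the 4 libraries left out, the adjusted p of this intron exceeded the threshold (0.0658 to 0.488, exact test).

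The remaining events of the cascade did not pass. The 72-nt exon of Mapk9 (JNK2) was at 8.12% and 7.94% in control ECs and at 13.8% and 13.3% in NOVA2-overexpressing ECs (Fisher's exact test, adjusted p = 0.0514). The annotation places another 72-nt exon downstream between the same flanking exons (chr11:49687766-49687837), 0 annotated transcripts hold both, and 47 of the 72 bases are identical. Mapk8ip3, another JNK scaffold, had a 31-nt exon at 44.9% and 49.0% against 37.9% and 37.7% (adjusted p = 0.199, exact test), which is not an annotated exon and had 19 reads on one of its junctions and 0 on the other in control replicate 1. The 237-nt exon of Mapkbp1 was at 100% in both control libraries and at 93.3% and 94.7% in NOVA2-overexpressing ECs (exact test, adjusted p = 0.162). Its 19 and 29 control reads count both junctions of the exon. The limits of 15.8% and 10.3% that they give for the skipped share are therefore too low.

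**Figure D2:**
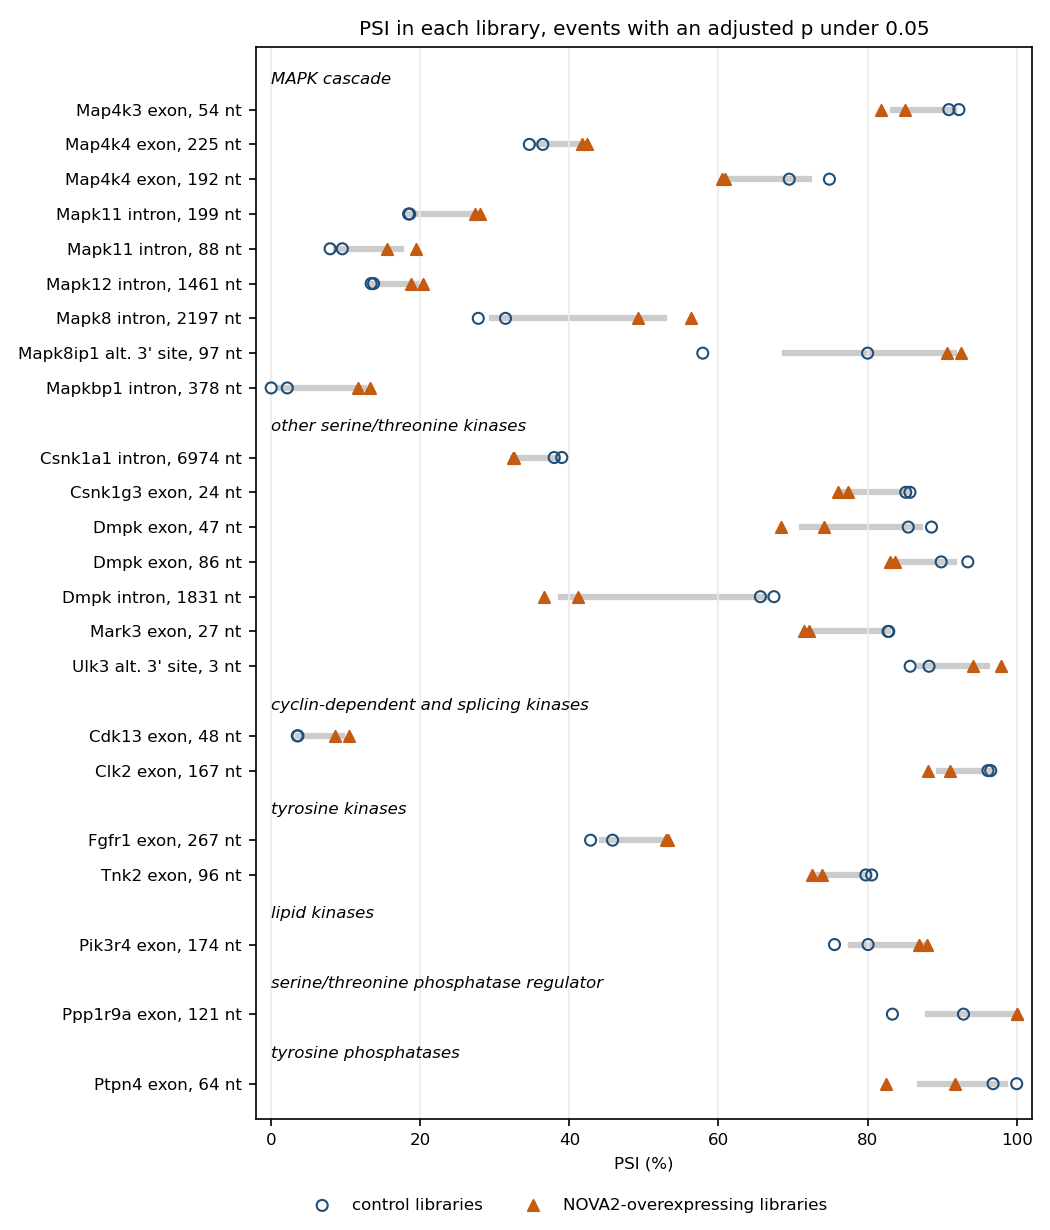
PSI in percent (x axis) of the 23 events with an adjusted p under 0.05, one row per event. Open circles are the 2 control libraries, triangles the 2 NOVA2-overexpressing libraries, and grey bars join the group means. The control circles of Mapk8ip1 lie far apart, at 57.9% and 80.0%, while those of the Mark3 exon coincide at 82.7% and 82.8%.

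Other serine/threonine kinases had 13 events in 8 genes, of which 1 rose and 6 fell, beside 30.7% and 25.2% of all deposited events, and 3 of the falls were in Dmpk. Dmpk, the myotonic dystrophy protein kinase, had 3 events, and PSI fell in each. Its first intron (chr7:19669504-19671334, 1831 nt) was retained at 67.4% and 65.6% in control ECs and at 41.1% and 36.6% in NOVA2-overexpressing ECs. Retention fell by 27.7 points, the largest difference of the 37 events (adjusted p = 1.21e-04, Fisher's exact test), and the Wilson intervals of control replicate 1 (50.3 to 79.8%) and NOVA2-overexpressing replicate 1 (31.1 to 50.9%) overlapped narrowly. An in-frame stop codon lies 12 nt into this intron, and 200 of its 1831 nt are covered by annotated exons.

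Near the 3′ end of Dmpk, a 47-nt exon (chr7:19677557-19677603) fell from 85.5% and 88.6% to 68.4% and 74.1% (dPSI -15.8, adjusted p = 0.00313, Fisher's exact test). Control replicate 2 had 9 reads on one side of that exon and 53 on the other. The adjusted p of the 47-nt exon was 0.0680 without control replicate 2 and 0.0592 without NOVA2-overexpressing replicate 1, in the exact test. The neighbouring 86-nt exon (chr7:19677896-19677981) fell from 89.9% and 93.4% to 83.7% and 83.0% (adjusted p = 0.0140, Fisher's exact test), and without control replicate 2 its adjusted p was 0.312. All 3 Dmpk events share the sign of dPSI, which is less retention for the intron and less inclusion for the exons. The exons lie in one stretch of the gene with several annotated splice variants, so their reads are not independent of each other.

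Mark3, a microtubule affinity-regulating kinase that acts in cell polarity, had a 27-nt exon (chr12:112890169-112890195) that was included at 82.7% and 82.8% in control ECs and at 71.5% and 72.1% in NOVA2-overexpressing ECs. Inclusion fell by 10.955 points, from 82.8% ± 0.0707 to 71.8% ± 0.431 (SD, n = 2 each), with an adjusted p of 2.36e-06 by Fisher's exact test, and replicates differed by far less than the groups. In the casein kinase genes PSI also fell, by smaller steps. That was less inclusion of an exon in Csnk1g3 and less retention of an intron in Csnk1a1. Csnk1g3, a casein kinase 1 gamma, had a 24-nt exon at 85.7% and 85.1% against 77.3% and 76.0% (adjusted p = 3.86e-04, Fisher's exact test). Csnk1a1, the casein kinase 1 alpha that primes beta-catenin for degradation, had a 6974-nt intron at 38.0% and 39.0% against 32.4% and 32.6%, with 1788 or more reads in every library (adjusted p = 5.33e-08, Fisher's exact test). In the Csnk1a1 intron 952 reads fell on one exon-intron junction and 32 on the other in control replicate 1, and annotated exons cover 4706 of its 6974 nt.

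Ulk3, a kinase related to the autophagy initiator Ulk1, had 3 events with a positive dPSI. An alternative 3′ site that adds 3 nt rose from 88.2% and 85.7% to 97.9% and 94.1% (adjusted p = 0.0450, Fisher's exact test), with 19 reads in control replicate 1. Leaving out any of the 4 libraries brought its adjusted p to between 0.0608 and 0.345 in the exact test. The 282-nt intron that directly follows the same exon was at 18.1% and 17.9% against 26.5% and 24.1%, and the 405-nt intron of the gene was at 19.6% and 20.0% against 29.0% and 25.9%. Neither passed (adjusted p = 0.315 and 0.131, exact test).

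NIMA-related kinases act in cilia and the cell cycle, and none of their 3 exons passed. The 132-nt exon of Nek1 was at 3.16% and 2.61% in control ECs and at 10.0% and 10.7% in NOVA2-overexpressing ECs, and its 84-nt exon was at 35.4% and 31.3% against 40.6% and 42.1%. The 144-nt exon of Nek4 was at 47.7% and 49.8% against 56.0% and 56.9%. The adjusted p of these exons ran from 0.0805 to 0.260 in Fisher's exact test. Stk11ip, a binding partner of the kinase Stk11 (LKB1), had an intron at 0% in both control libraries and at 7.46% and 5.08% in NOVA2-overexpressing ECs (exact test, adjusted p = 0.328). The 11 and 18 control reads allow shares of up to 27.3% and 16.7%, which exceed the values in NOVA2-overexpressing ECs. Quasi-binomial regression gave this intron an adjusted p of 0.0488 and limma 0.120.

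Kinases that act on the transcription and splicing machinery had 3 events. Clk2, which phosphorylates SR splicing factors, had a 167-nt exon (chr3:88977299-88977465) at 96.5% and 96.1% in control ECs and at 91.0% and 88.1% in NOVA2-overexpressing ECs. Inclusion fell by 6.79 points (adjusted p = 9.32e-05, Fisher's exact test), and the length of the exon is not a multiple of 3. Cdk13, a kinase of the RNA polymerase II tail, had a 48-nt exon, absent from the annotation, that rose from 3.59% and 3.50% to 10.4% and 8.61% (adjusted p = 0.0286, Fisher's exact test). Its call was kept only without NOVA2-overexpressing replicate 2, the adjusted p being 0.130, 0.169 and 0.147 without control replicate 1, control replicate 2 and NOVA2-overexpressing replicate 1. Cdk19, a kinase of the Mediator complex, had a 58-nt exon at 78.6% and 77.1% against 91.1% and 90.0%, a dPSI of 12.7 points that did not pass (adjusted p = 0.0843, exact test) with 25 reads in control replicate 1.

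The tyrosine kinases Fgfr1 and Tnk2 had 1 exon each, with opposite signs and deep coverage. Fgfr1, a receptor for fibroblast growth factors, had a 267-nt exon (chr8:26665980-26666246, exon 3 of an 18-exon transcript, skipped in 2 annotated transcripts). It was included at 45.8% and 42.8% in control ECs and at 53.2% and 53.0% in NOVA2-overexpressing ECs, a rise of 8.77 points (adjusted p = 6.21e-05, Fisher's exact test). Tnk2 (ACK1), a kinase that binds active Cdc42, had a 96-nt exon (chr16:32680986-32681081) that fell from 79.8% and 80.6% to 72.6% and 73.8%. Its PSI fell by 6.965 points with the smallest adjusted p of the 37 events (1.34e-13, Fisher's exact test) and 1590 to 2604 reads per library. Both exons are coding, have a length that is a multiple of 3, and kept their calls with each library left out.

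Among lipid kinase genes, Pik3r4, the regulatory subunit of the class III PI3-kinase that works in autophagy and endosomes, had a 174-nt exon (chr9:105560749-105560922) at 75.6% and 80.1% in control ECs and at 86.9% and 88.0% in NOVA2-overexpressing ECs. It rose by 9.64 points (adjusted p = 0.0215, Fisher's exact test), and its adjusted p was 0.137, 0.0594 and 0.112 without control replicate 1, NOVA2-overexpressing replicate 1 and NOVA2-overexpressing replicate 2. Dgkq, a diacylglycerol kinase, had a 1425-nt intron at 4.09% and 9.81% against 19.1% in both NOVA2-overexpressing libraries. That dPSI of 12.1 points did not pass (adjusted p = 0.202, exact test), and control replicate 1 had 13 reads.

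Phosphatase genes were represented by Ppp1r9a and Ptpn4. Ppp1r9a, the actin-binding protein neurabin that targets protein phosphatase 1, had a 121-nt exon (chr6:5007458-5007578) at 92.9% and 83.3% in control ECs and at 100% in both NOVA2-overexpressing libraries. Inclusion rose by 11.9 points (adjusted p = 0.00347, Fisher's exact test). The 39 and 42 reads of the NOVA2-overexpressing libraries showed no skipping, but they count both junctions of the exon. The limits of 7.69% and 7.14% that they give for the skipped share are therefore too low. Without control replicate 2 dPSI was 7.14 points and the adjusted p 0.131, and without NOVA2-overexpressing replicate 1 or 2 the adjusted p was 0.0540 or 0.0537 (exact test). Its 199-nt exon had a dPSI of the opposite sign, 90.4% and 92.2% against 75.4% and 79.1%, and did not pass (adjusted p = 0.101, exact test).

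Ptpn4, a tyrosine phosphatase with FERM and PDZ domains, had a 64-nt exon (chr1:121622610-121622673) at 100% and 96.8% in control ECs and at 82.5% and 91.7% in NOVA2-overexpressing ECs. Inclusion fell by 11.4 points (adjusted p = 0.0117, Fisher's exact test). The 39 reads of control replicate 1 count both junctions of the exon. The limit of 7.69% that they give for the skipped share is therefore too low. The NOVA2-overexpressing libraries differed from each other by nearly as much as the groups. In limma with the replicate number as a block the adjusted p was 0.0783, and in the exact test without control replicate 1, control replicate 2 or NOVA2-overexpressing replicate 1 the adjusted p was 0.125, 0.0673 or 0.122. An alternative 3′ site of Ptpn4 was at 0% in both control libraries and at 16.2% and 13.2% in NOVA2-overexpressing ECs (exact test, adjusted p = 0.0798). The 18 and 16 control reads allow up to 16.7% and 18.8% per library, so the exact test leaves the size of this difference uncertain. Limma gave an adjusted p of 0.0191, but it called 954 of all 1075 deposited events.

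Size and support were spread unequally over the events. The 13 events that reached 10 points had a median of 25 reads in their lowest library, and the 24 smaller ones had a median of 120. The score of vast-tools for the lowest library was VLOW in 10 events, of which 4 passed, LOW in 4, of which 2 passed, OK in 8, of which 5 passed, and SOK in 15, of which 12 passed. Passing at each single score was not counted over all deposited events. All libraries were OK or better in 23 of the 37 events and in 647 of all 1075. With the exact test adjusted over these events only, 9 of the 23 rose and 10 fell, and 502 of the 647 were called. Control replicate 1 was scored VLOW in 9 of the 37 events, control replicate 2 in 4 and each NOVA2-overexpressing library in 1. Over all 37 events together, control replicate 1 had 7973 reads, control replicate 2 had 10232, NOVA2-overexpressing replicate 1 had 12704 and replicate 2 had 11865. Replicate libraries lay a median of 1.63 PSI points apart in control ECs and 1.42 points apart after NOVA2 overexpression.

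**Figure D3:**
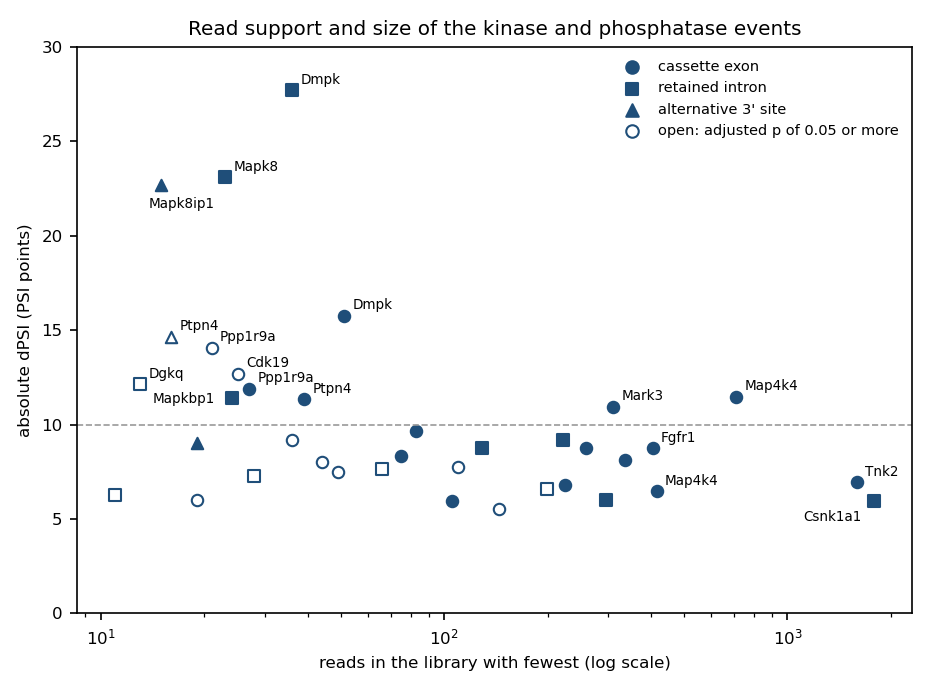
Absolute dPSI in PSI points (y axis) against the reads in the library with fewest reads (x axis, log scale) for the 37 events, with the shape showing the class and open symbols an adjusted p of 0.05 or more. Above the dashed line at 10 points, only the Mark3 and Map4k4 exons have more than 100 reads in every library.

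All 12 introns lie between coding exons in at least 1 annotated transcript. For Dgkq that was 1 of the 7 transcripts with the intron, and for Stk11ip 2 of 3. Read in 1 such transcript each, 10 introns contain an in-frame stop codon, the first of them 5 to 238 nt past the upstream exon. The introns of Map3k10 and Csnk1a1 had 95.1 to 98.9% of their junction reads on the same side in every library. Without the 5 events with unequal junctions (the introns of Map3k10, Mapk12 and Csnk1a1 and the exons of Mapk8ip3 and Dmpk, 47 nt), 11 events rose and 9 fell.

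**Figure D4:**
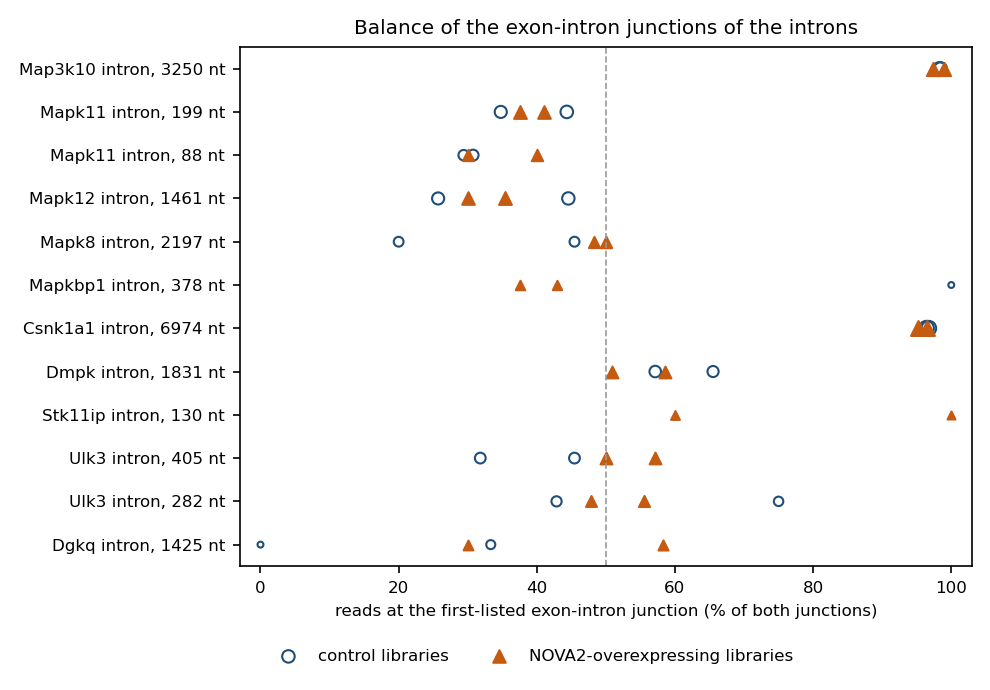
Share of exon-intron junction reads that fell on the first-listed junction, in percent (x axis), for each library of the 12 introns. Circles are control and triangles NOVA2-overexpressing libraries, symbols grow with the number of junction reads, and the dashed line marks an equal split. Map3k10 and Csnk1a1 lie at the right edge in all 4 libraries, and libraries without junction reads are not drawn.

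Of the 22 cassette exons, 19 matched an annotated exon exactly and 17 were fully coding, 12 of these with a length that is a multiple of 3. A length that is a multiple of 3 was found in 63.6% of the 22 exons and in 52.6% of all 549 deposited cassette exons. Of the 8 genes with several events, 4 (Map4k4, Mapkbp1, Ppp1r9a and Ptpn4) had dPSI values of both signs, 3 (Mapk11, Nek1 and Ulk3) had only positive ones, and Dmpk had only negative ones. YCAY tetramers were counted in the 200 nt of intron before each exon, or in the whole intron where it was shorter. They numbered 1.72 per 100 nt before the 12 exons with negative dPSI and 1.60 before the 10 with positive dPSI, against 2.05 and 1.54 for all deposited cassette exons. The difference between the 12 and the 10 exons, 0.128 per 100 nt, was 0.501 in windows of 100 nt and 0.511 in windows of 300 nt. In the 200 nt after the exon the densities were 1.78 and 1.85, against 1.66 and 1.84 for all. Within the exon there were 2.86 and 1.74 tetramers per 100 nt, against 2.15 and 1.63 for all. At least 1 YCAY was present in 94.5% of the upstream windows of all deposited cassette exons, so its presence does not set an exon apart.

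A further list of 175 genes of kinases, phosphatases and some partner proteins outside the rule, Map2k7 and Ptprm among them, was looked up in the same table. It held 27 events in 25 genes, of which 11 rose, 4 fell and 12 did not pass, with a median absolute dPSI of 11.5 points, beside 30.7% rises, 25.2% falls and a median of 10.3 points over all deposited events. Ppfibp1, a liprin and itself neither kinase nor phosphatase, had a 33-nt exon that rose from 38.1% and 40.6% to 51.8% and 52.1% (adjusted p = 6.42e-12, Fisher's exact test). Tgfbr2, a TGF-beta receptor kinase, had a 75-nt exon that fell from 38.3% and 39.6% to 31.5% and 29.7% (adjusted p = 0.0381, Fisher's exact test). These 2 were chosen after their values were seen.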

How the data were processed

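RNA-seq of control and NOVA2-overexpressing mouse ECs was sequenced by the authors on a HiSeq2500 and quantified with vast-tools on mm9. The deposited table gives for each event and library the PSI, a percent, and a quality string from which coverage scores and corrected inclusion and exclusion reads were taken, other quantities than raw counts. The authors kept only events with a gap of more than 5 points between all libraries of the groups. Unchanged events were not used here, nor were 12 columns of values of other samples, 4 columns of pooled libraries and the authors' dPSI.

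Fisher's exact test used rounded reads, adjusted by Benjamini-Hochberg over 1075 events. With 2 libraries a group, an exact permutation test cannot give a two-sided p below 0.333. Wilson intervals (95%) and the limit from 3 reads for a PSI of 0 or 100% cover counting error only. Wilson intervals of exons and introns can be too narrow, and the limit for exons at 100% is too low, since inclusion is read at 2 junctions. Reads behind all events summed to 124383 and 155871 in control and to 193429 and 182794 in NOVA2-overexpressing libraries. The events and lists were chosen with earlier results of these data known. Every gene was named, with values in every library where dPSI reached 10 points or the test passed. Alternatives used limma 3.58.1 (R 4.3.3), quasi-binomial regression, a Cochran-Mantel-Haenszel test, coverage filters and left-out libraries. Only the tests were also run on simulated reads, not the coverage filters or left-out libraries. The simulated events had no gap filter, unlike the deposited ones. Sequence and annotation were from NCBIM37 (mm9) and GENCODE, and 546 of 549 cassette exons were preceded by AG. Python 3.11.15, numpy 2.4.6, pandas 2.3.3, scipy 1.17.1, statsmodels 0.14.6 and matplotlib 3.10.9 were used.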

Additional observations from a re-analysis of the deposited data

How the results depend on the processing

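With limma, 21 events rose (20 with a pseudocount of 1) against 12 by Fisher's exact test, and all 12 were among the 21. Quasi-binomial regression gave 6, and 1 of these was among the 12. The falls were 15, 14 and 8 in the same order. Over the whole table limma called 954 of 1075 events (936 with a pseudocount of 1), so a limma call sets few events apart. Quasi-binomial regression called 256 of the 1073 events for which it gave a p. The replicate numbers of the 2 groups did not deviate together (r = 0.0039 over 1075 events, a description). With the replicate number as a block, limma gave 19 rises and 13 falls, losing the 64-nt Ptpn4 exon among the falls of Fisher's exact test. The Cochran-Mantel-Haenszel test gave 10 rises and 11 falls, losing the Mapkbp1 intron and the Ulk3 3′ site. Over all 1075 events, limma with the block called 863 and the Cochran-Mantel-Haenszel test 517. With 1 library left out, rises numbered 5 in each case and falls 8 to 11, and 10 of the 23 calls were kept throughout. Over all 1075 events, 315 to 407 were called with 1 library left out, and how many kept their call throughout was not counted. No event turned its direction, but the authors' gap between all libraries had fixed that in advance. Without events scored VLOW, 6 events reached 10 points instead of 13, with OK or SOK in all libraries 4 did, and 4 reached 15 points. The difference in upstream YCAY density between exons with negative and positive dPSI was 0.128 per 100 nt in the 200-nt window, 0.501 in 100 nt and 0.511 in 300 nt. The causes were not tested. The median absolute dPSI stayed between 7.84 and 8.88 points under all alternatives run. The alternative without unequal junctions was chosen after the data were seen. Depth limits the events with VLOW scores most, and the selection of the table on replicate gaps limits every p.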
